A study of Mus musculus with 8 samples.

Results

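The transcripts of 9 genes that build, finish, remodel or break down ether lipids were followed in mouse gonadal white fat whose adipocytes were made to lose the peroxisomal import receptor Pex5. The genes are Gnpat, Agps, Far1, Far2, Cept1, Chpt1, Pla2g6, Lpcat3 and Agmo. They were taken by exact gene symbol in the array annotation, which gave 21 probe sets of 45037; the lead probe set of a gene is the one with the highest average value, and 18193 genes were treated in this way. The 4 knockout arrays (replicates 6, 8, 9 and 10) came from aP2-Pex5 -/- mice and the 4 control arrays (replicates 1, 2, 3 and 4) from mice labelled wild type, all aged 10 weeks and on a Swiss background. The aP2 (Fabp4) promoter that drives the deletion is active in adipocytes and is known to be active in some other cells, macrophages among them; the tissue was taken whole, so it also holds cells that should keep Pex5. Nothing in the labels tells whether each array is a different animal, and p-values therefore reflect only how far these samples spread. Values are log2 intensities, and every difference is knockout minus control on the log2 scale.

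Ether lipids carry a fatty alcohol bound to glycerol by an ether bond in place of one of the usual fatty acids, and plasmalogens are ether lipids with a double bond beside that oxygen. The first steps take place in the peroxisome: Gnpat attaches a fatty acid to dihydroxyacetone phosphate, Agps exchanges it for a fatty alcohol, and Far1 and Far2 supply the alcohol from the peroxisomal membrane. Gnpat enters the peroxisome through Pex5, and Agps through Pex7, which itself needs Pex5. The molecule is then reduced, given its head group and desaturated in the endoplasmic reticulum, and adipose tissue is known to contain such lipids.

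No ether lipid gene passed the test between knockout and control. In limma with Benjamini-Hochberg adjustment over all 18193 genes, 0 of the 9 genes had an adjusted p under 0.05, against a background of 0% of all genes; each adjusted p was 0.999. With an unadjusted p under 0.05 as the limit, 0 of the 9 genes and 466 of all genes (2.56%) passed, and the groups overlapped in all 9, where 310 of all genes (1.7%) did not overlap. In knockout fat 7 of the 9 lead probe sets lay lower, against 53.3% of all genes, and the median difference was -0.04 against -0.01 over all genes. By probe set, 12 of the 21 lay lower, and 0 of 21 had an unadjusted p under 0.05, against 2.53% of all probe sets. The 95% intervals of the lead probe sets, each for a single gene, lay within a 2-fold change in either direction for 9 of 9 genes. They lay within 1.5-fold for 8 of 9, with Pla2g6 the exception. Their median half-width was 0.26, against 0.25 over all genes. By probe set, 20 of the 21 intervals lay within 2-fold. That of Pla2g6 1431278_s_at did not, at 0.409 to 3.91 times control. In bulk tissue, fewer cells of a type and less RNA per cell cannot be told apart in any value here.

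**Figure D1:**
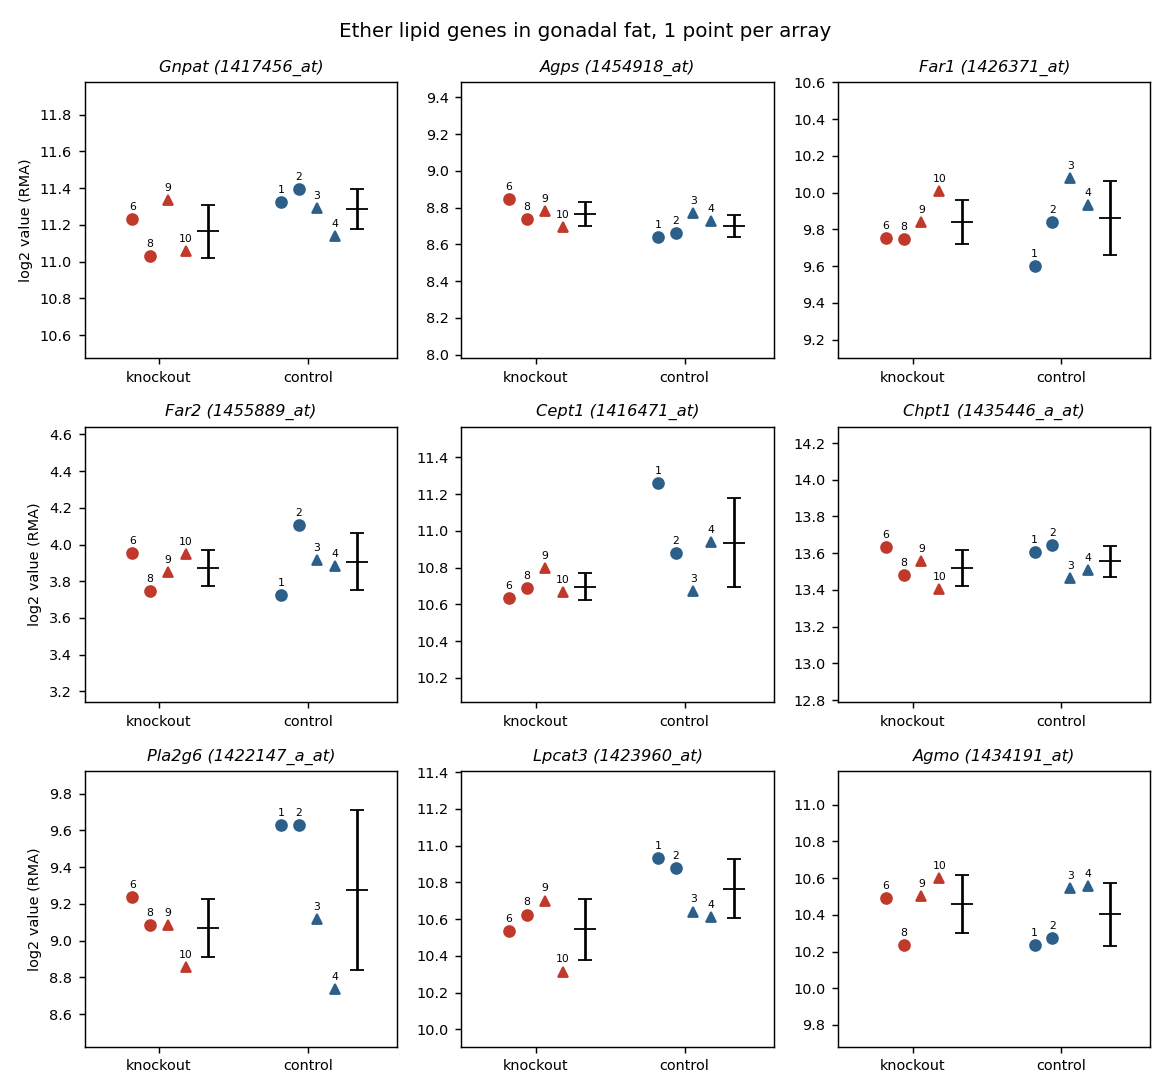
Log2 value (y axis) of each gene's lead probe set on the 4 knockout arrays (red, left) and the 4 control arrays (blue, right), with the replicate number at each point and the mean ± SD as a black bar; circles and triangles are the 2 sets of arrays described in the text, and each panel spans the same height. The groups overlap in all 9 panels, and Pla2g6 spreads most, between 8.74 and 9.63 in controls.

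The arrays themselves set the frame for these values. Pex5 read 9.50, 9.27, 9.38 and 9.30 on knockout arrays 6, 8, 9 and 10 and 9.52, 9.58, 9.34 and 9.06 on control arrays 1, 2, 3 and 4 (1426770_at), and its other probe set lay between 8.75 and 9.30 in knockouts and between 8.55 and 9.39 in controls. Where these probes lie relative to the deleted part of Pex5 is not given, so they cannot check the genotype. Adipocyte markers were high in both groups, 8 of 10 listed being measured, with a summed level of 16.66 to 16.79 in knockouts and 16.58 to 16.77 in controls. Traces of neighbouring tissue were uneven: epididymis markers summed to 12.29 on knockout 8 and 10.47 on control 1 and to 7.45 to 8.13 elsewhere, and spermatid markers to 11.45 or more on knockout 9 and control 3 and to 8.33 to 9.65 elsewhere. Ciliated epithelium markers, 7 of 7 higher in knockout, summed to 10.74 to 11.67 in knockouts and 8.99 to 11.40 in controls. Ovary and uterus markers, 6 of 7 higher, summed to 11.48 to 12.06 in knockouts and 10.32 to 11.81 in controls. Most of that sum came from Esr1, with a mean of 10.91 over the 8 arrays. Greb1 averaged 8.82, Wnt7a 7.18, Star 7.06, Ovgp1 6.01, Fshr 5.03 and Pgr 4.55. Greb1 read 9.69, 10.12, 9.13 and 9.85 on knockout arrays 6, 8, 9 and 10. On control arrays 1, 2, 3 and 4 it read 9.35, 7.92, 4.92 and 9.57. The sum alone does not show whether ovary or uterus was present, and this was not tested. Smooth muscle markers, 6 of 6 higher, summed to 12.44 to 12.86 in knockouts and 11.95 to 13.01 in controls. Neutrophil markers, 5 of 7 measured, summed to at most 10.68 in knockouts and at most 12.27 in controls, the highest being control 4 and the next control at 9.76. None of these sums separated the groups, and their part in the results was not tested. Macrophage markers, 10 of 10 measured and 9 of them lower in knockout, summed to 13.65 to 14.30 in knockouts and 13.89 to 14.72 in controls. The arrays differed in 2 further ways. By the lower quartile of their values they fell into 2 sets of 4, knockouts 6 and 8 with controls 1 and 2, and knockouts 9 and 10 with controls 3 and 4. These are the first 4 and the last 4 samples in the order listed, and the labels name no batch. As a measure of RNA quality, only the 3' minus 5' control probe sets of pyruvate carboxylase were read. They differed by 3.97 to 4.83 on knockout 9 and controls 1 and 4 and by 1.59 to 2.10 on the other 5 arrays.

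Promoter sequences are shown for 4 of the genes, taken as pairs whose levels moved together across arrays. Pla2g6 and Lpcat3 were the most alike of 36 pairs over the 8 arrays (Pearson's r of 0.79). Far1 and Agmo were the most alike pair that shared no gene with these (0.76). Between the pairs the levels ran in opposite directions. Agmo had an r of -0.74 with Pla2g6 and -0.73 with Lpcat3, and Far1 had -0.62 and -0.56. These are descriptions over arrays that share the sets named above, and no test was made. RefSeq start sites on GRCm38.p6 were found for 9 of 9 genes, and each window holds the 250 bases before the start, 5′ to 3′ on the gene's strand. Capitals mark the CCAAT box (CCAAT) and the GC box (GGGCGG) on either strand, with adjoining boxes allowed to overlap.
Pla2g6, chr15:79328372-79328621, minus strand: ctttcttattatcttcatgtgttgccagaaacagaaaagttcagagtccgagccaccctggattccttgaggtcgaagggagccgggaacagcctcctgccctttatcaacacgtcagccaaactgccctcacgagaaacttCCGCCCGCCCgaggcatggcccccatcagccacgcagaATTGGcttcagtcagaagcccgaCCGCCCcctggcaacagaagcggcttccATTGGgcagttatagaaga
Lpcat3, chr6:124662854-124663103, plus strand: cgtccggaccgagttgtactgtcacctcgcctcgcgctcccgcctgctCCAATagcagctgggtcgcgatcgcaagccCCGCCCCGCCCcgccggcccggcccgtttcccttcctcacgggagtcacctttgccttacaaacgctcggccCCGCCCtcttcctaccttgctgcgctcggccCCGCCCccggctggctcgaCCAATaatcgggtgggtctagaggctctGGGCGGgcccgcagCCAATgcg
Far1, chr7:113513584-113513833, plus strand: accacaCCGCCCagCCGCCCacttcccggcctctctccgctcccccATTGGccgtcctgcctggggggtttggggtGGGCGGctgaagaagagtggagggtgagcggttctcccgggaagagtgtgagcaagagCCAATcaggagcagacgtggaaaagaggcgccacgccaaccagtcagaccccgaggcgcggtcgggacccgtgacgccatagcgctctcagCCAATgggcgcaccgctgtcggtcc
Agmo, chr12:37241389-37241638, plus strand: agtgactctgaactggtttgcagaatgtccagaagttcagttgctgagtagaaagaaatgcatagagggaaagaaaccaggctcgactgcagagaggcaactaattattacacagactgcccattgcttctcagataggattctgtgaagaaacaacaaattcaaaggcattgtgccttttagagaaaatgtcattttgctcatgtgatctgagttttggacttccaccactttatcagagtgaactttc

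The GC box was found 3 times before Pla2g6, 5 times before Lpcat3, 3 times before Far1 and 0 times before Agmo, and 32.7% of 32851 windows of the same length held at least 1. The CCAAT box was found 2, 3, 3 and 0 times in the same order of genes, and 33.8% of windows held it. Agmo stood apart in composition too, with 40.8% G and C and 1 CpG, against a median of 52.4% over all windows; Far1 had 67.6%, Lpcat3 70.0% and Pla2g6 55.6%. Both boxes were present in the Pla2g6, Lpcat3 and Far1 windows and absent from the Agmo window. The lead probe sets of Far1 and Agmo were both higher on knockouts 9 and 10 and controls 3 and 4, by 0.23 and 0.24 on average. Those of Pla2g6 and Lpcat3 were lower on the same arrays, with mean differences between the sets of -0.45 and -0.17. The part of the array sets in the correlations of these pairs was not tested. Any link between the boxes and the levels was not tested. Neither the letters TATAAA (12.4% of windows) nor CACGTG (6.02%) were found in these 4 windows, which says only that they are not there. Over all 9 genes, taking the first window of each, the GC box was in 8 and the CCAAT box in 5.

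The peroxisomal steps showed no common direction. Gnpat, the acyltransferase that starts the pathway, read 11.23, 11.03, 11.34 and 11.06 on knockout arrays 6, 8, 9 and 10 and 11.33, 11.40, 11.29 and 11.14 on control arrays 1, 2, 3 and 4. Knockouts 8 and 10 lay below every control, while knockout 9 lay above all controls but control 2. The means were 11.16 ± 0.14 in knockout and 11.29 ± 0.11 in control (SD, n = 4 each), and knockout minus control was -0.12 (95% interval -0.34 to 0.09; limma, adjusted p = 0.999), or 0.918 times control (0.791 to 1.06). Without knockout 8 it was -0.079.

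Agps, the alkyl transferase that makes the ether bond, read 8.85, 8.74, 8.78 and 8.69 on knockout arrays 6, 8, 9 and 10 and 8.64, 8.66, 8.77 and 8.73 on control arrays 1, 2, 3 and 4. It varied little: 94.4% of all genes had a larger SD over the 8 arrays. Its difference was 0.07 (-0.09 to 0.22; limma, adjusted p = 0.999), with means of 8.76 ± 0.07 in knockout and 8.70 ± 0.06 in control (SD, n = 4 each). The other Agps probe sets lay on the same side, 1434919_at at 0.17 (-0.07 to 0.41) and 1443797_at at 0.05 (-0.15 to 0.24). Probe set 1443797_at read 3.90 to 4.17 in knockouts and 3.90 to 4.15 in controls, near the lower end of the table's scale of 2.71 to 14.8. Within the array sets the lead probe set differed by 0.14 (knockouts 6 and 8 against controls 1 and 2) and -0.01 (knockouts 9 and 10 against controls 3 and 4), and by 0.037 without knockout 6.

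Far1, the reductase that supplies most fatty alcohol for ether lipids, read 9.75, 9.75, 9.84 and 10.01 on knockout arrays 6, 8, 9 and 10 and 9.60, 9.84, 10.08 and 9.93 on control arrays 1, 2, 3 and 4. The difference was -0.02 (-0.28 to 0.23; limma, adjusted p = 0.999), 0.047 without control 3, and the differences of its 5 probe sets lay between -0.06 and 0.03. Far1 split by array set: its lead probe set lay between 9.60 and 9.84 on knockouts 6 and 8 and controls 1 and 2, and between 9.84 and 10.08 on the other 4 arrays, without overlap. The separation was close to a tie, with 9.8403 on control 2 and 9.8420 on knockout 9. Far2, a reductase best known from skin glands and brain, lay near the lower end of the scale on every array, between 3.75 and 3.95 in knockouts and between 3.72 and 4.10 in controls. Its difference was -0.03 (-0.25 to 0.18), 0.033 without control 2, and 0.06 for its other probe set (-0.25 to 0.38). No detection calls came with the values, so whether Far2 was above background is not known.

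**Figure D2:**
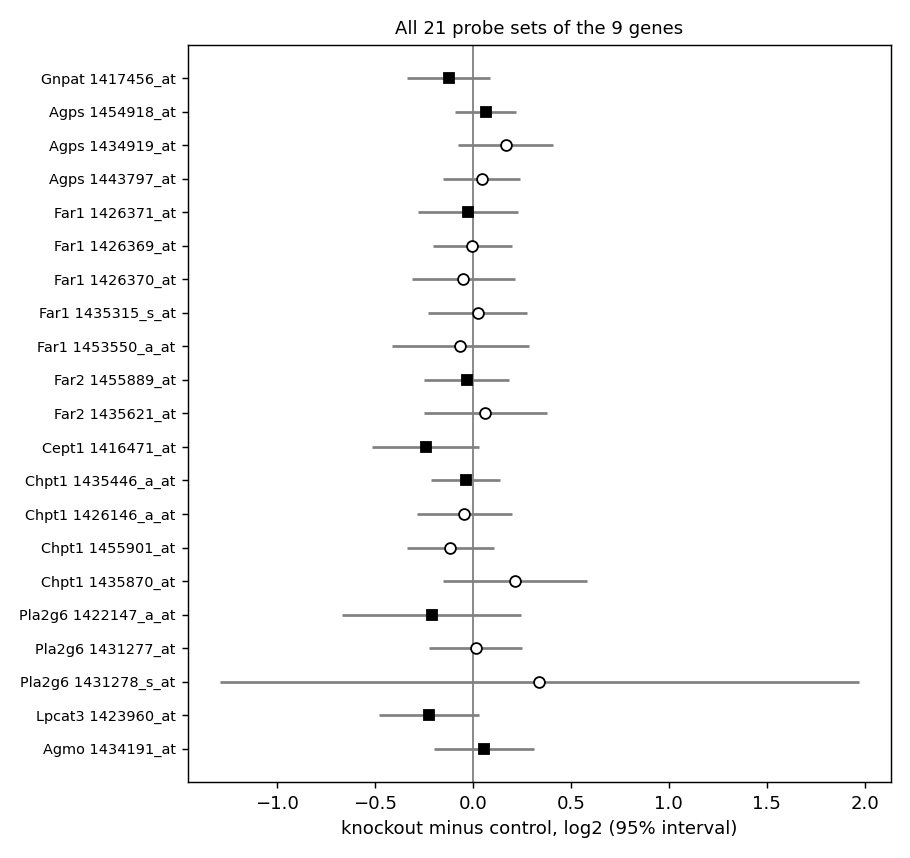
Difference between knockout and control (x axis, log2, with the 95% interval of the fit over all probe sets) for each of the 21 probe sets (y axis); filled squares are the lead probe set of a gene and open circles the others. All 21 intervals cover 0, 4 of the 5 genes with several probe sets have them on both sides of 0, and Pla2g6 1431278_s_at has the widest, from -1.29 to 1.97.

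Neither Cept1 nor Chpt1, the enzymes among the 9 genes that add the head group, passed. Cept1, which can add either phosphoethanolamine or phosphocholine and so completes ethanolamine ether lipids, read 10.63, 10.69, 10.80 and 10.66 on knockout arrays 6, 8, 9 and 10 and 11.26, 10.88, 10.67 and 10.94 on control arrays 1, 2, 3 and 4. Only control 3 fell inside the knockout range. The means were 10.70 ± 0.07 in knockout and 10.94 ± 0.24 in control (SD, n = 4 each). The difference of -0.24 (-0.52 to 0.04) had the smallest unadjusted p of the 9 genes, 0.0795, and did not pass over all genes (limma, adjusted p = 0.999). Control 1 carried much of it, and without that array the difference was -0.13; 6 of the 7 measured liver markers were also highest on control 1. Of these Alb, serum albumin, read 11.97, 10.25, 8.06 and 8.89 on knockout arrays 6, 8, 9 and 10 and 13.64, 10.95, 9.20 and 7.87 on control arrays 1, 2, 3 and 4, so liver transcripts varied widely among the other arrays too. Alb and Apoa1 were higher on each of knockouts 6 and 8 and controls 1 and 2 than on any other array. Ttr, Apoa2, Fgb and Ahsg overlapped between these array sets. The seventh, Cyp2e1, lay between 14.04 and 14.45 on all 8 arrays, and the part of liver transcripts in the result was not tested.

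Chpt1, the cholinephosphotransferase, read 13.63, 13.48, 13.56 and 13.41 on knockout arrays 6, 8, 9 and 10 and 13.61, 13.65, 13.47 and 13.51 on control arrays 1, 2, 3 and 4. These values near the top of the scale overlapped widely between the groups, and the difference was -0.04 (-0.21 to 0.14; limma, adjusted p = 0.999) and 0.00176 without knockout 10. Its 4 probe sets did not share a sign. Probe sets 1426146_a_at and 1455901_at stood at -0.04 and -0.12, while 1435870_at stood at 0.22 (-0.15 to 0.58). The last read 11.57, 11.47, 11.28 and 11.19 on knockout arrays 6, 8, 9 and 10 and 11.32, 11.49, 11.08 and 10.76 on control arrays 1, 2, 3 and 4. It was lower on all 4 arrays of the set of knockouts 9 and 10 and controls 3 and 4 than on any of the other 4.

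Lpcat3 and Pla2g6, the remodelling enzymes among the 9 genes, lay lower in knockout on their lead probe sets, and neither passed. Lpcat3, which loads arachidonic and other polyunsaturated acids into lysophospholipids, read 10.53, 10.62, 10.70 and 10.31 on knockout arrays 6, 8, 9 and 10 and 10.93, 10.88, 10.64 and 10.61 on control arrays 1, 2, 3 and 4. Controls 1 and 2 lay above every knockout, whereas controls 3 and 4 lay inside the knockout range. The means were 10.54 ± 0.17 in knockout and 10.77 ± 0.16 in control (SD, n = 4 each), and knockout minus control was -0.22 (-0.48 to 0.04; limma, adjusted p = 0.999). It was -0.32 for knockouts 6 and 8 against controls 1 and 2 and -0.12 for knockouts 9 and 10 against controls 3 and 4, and -0.15 without knockout 10.

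Pla2g6, a calcium-independent phospholipase A2 that frees fatty acids from phospholipids, plasmalogens included, read 9.24, 9.08, 9.09 and 8.86 on knockout arrays 6, 8, 9 and 10 and 9.63, 9.63, 9.12 and 8.74 on control arrays 1, 2, 3 and 4. The control arrays spanned both ends of the range. The means were 9.07 ± 0.16 in knockout and 9.28 ± 0.43 in control (SD, n = 4 each). The difference of -0.21 had the widest interval of the lead probe sets, -0.67 to 0.25 (limma, adjusted p = 0.999). It was -0.47 for knockouts 6 and 8 against controls 1 and 2 and 0.05 for knockouts 9 and 10 against controls 3 and 4. Leaving out control 2 gave -0.09 and leaving out control 4 gave -0.39.

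The probe sets of Pla2g6 gave different pictures of the same gene. Probe set 1431278_s_at read 7.48, 7.55, 5.39 and 7.32 on knockout arrays 6, 8, 9 and 10 and 6.04, 8.07, 7.29 and 4.98 on control arrays 1, 2, 3 and 4. Its range of 3.09 over the 8 arrays was exceeded by 0.884% of all probe sets, and its difference was 0.34 with an interval of -1.29 to 1.97 (limma, adjusted p = 0.999). The 3 low arrays, knockout 9 and controls 1 and 4, were the 3 with a large 3' minus 5' difference of pyruvate carboxylase; they averaged 5.47 and the other 5 arrays 7.54. With that measure as a covariate the difference was -0.13. The third probe set of the gene, 1431277_at, lay between 7.28 and 7.52 in knockouts and 7.14 and 7.57 in controls, a difference of 0.01.

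The same 3 arrays were the lowest in 2 of the 21 probe sets (9.52%), against 5.06% of all probe sets. The other was Far1 1426370_at, which averaged 8.99 on these 3 arrays and 9.24 on the other 5. Far1 1453550_a_at averaged 7.36 on these 3 and 7.71 on the other 5. It was not counted because control 1 and knockout 6 tied at 7.56. Picked out after its values were seen, probe set 1440189_at of Ppp2r5a, a regulatory subunit of protein phosphatase 2A, had the pattern most like Pla2g6 1431278_s_at (Pearson's r of 0.997 over 8 arrays), with 6.74 on knockout 9, 7.51 on control 1 and 6.07 on control 4, and 8.62 to 9.54 elsewhere. The part of RNA quality in these values was not tested beyond the covariate.

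**Figure D3:**
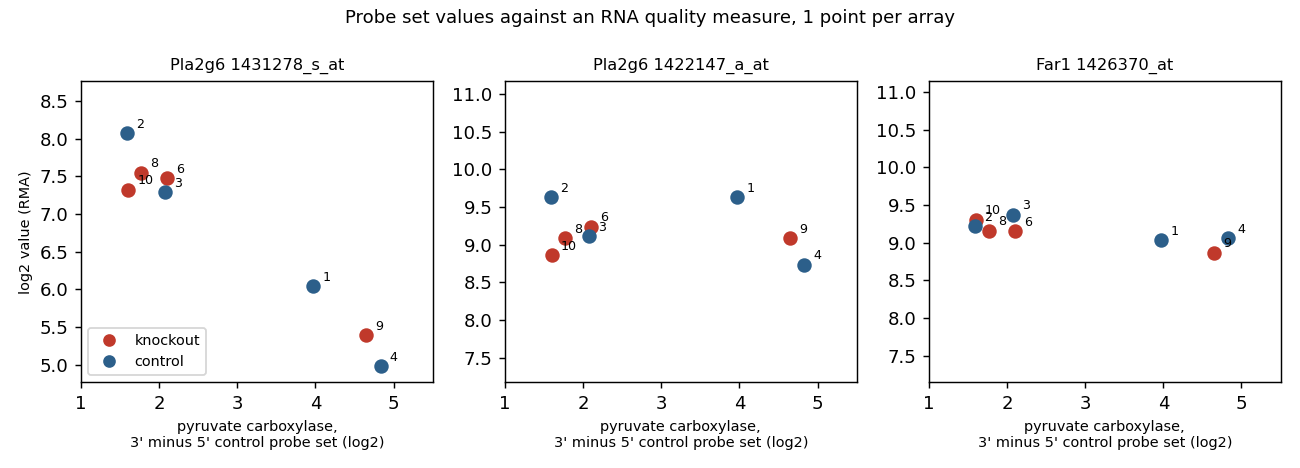
Log2 value (y axis, the same height of 4 units in each panel) of 2 Pla2g6 probe sets and 1 Far1 probe set against the 3' minus 5' difference of pyruvate carboxylase (x axis, log2) on 4 knockout (red) and 4 control (blue) arrays, labelled by replicate. Pla2g6 1431278_s_at is lowest on the 3 arrays at the right, knockout 9 and controls 1 and 4, while 1422147_a_at of the same gene is not.

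Agmo, the monooxygenase that cleaves the ether bond of alkylglycerols with tetrahydrobiopterin as cofactor, read 10.49, 10.23, 10.50 and 10.60 on knockout arrays 6, 8, 9 and 10 and 10.23, 10.28, 10.55 and 10.55 on control arrays 1, 2, 3 and 4. The difference was 0.06 (-0.20 to 0.31; limma, adjusted p = 0.999), and -0.000161 without control 1. Agmo was higher on each of knockouts 9 and 10 and controls 3 and 4 than on any of the other 4 arrays, by 0.24 on average. The nearest arrays of the 2 sets, knockouts 6 and 9, lay close together at 10.49 and 10.50. Such a split between the array sets was found in 4 of the 21 probe sets (19.0%), namely those of Agmo, of Far1 (1426371_at and 1426369_at) and of Chpt1 (1435870_at), against 12.4% of all probe sets. Adding the array set to the fit left the 9 differences as they were, since each set holds 2 arrays of each group, and 0 of the 9 genes passed (limma, adjusted p at least 0.932).

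The rest of the pathway was read from a list of 51 genes in 8 roles, of which 50 were measured. Apart from the 9 genes, 17 of 41 lay lower and 24 higher in knockout, with a median difference of 0.02 against -0.01 over all genes. None passed over all genes, and at an unadjusted p under 0.05 there were 3 (7.32%, beside 2.56% of all genes): Dhrs7b, Gch1 and Pla2g4a. Dhrs7b, the reductase that acts directly after Agps, read 10.27, 10.13, 10.14 and 10.05 on knockout arrays 6, 8, 9 and 10 and 10.64, 10.68, 10.34 and 10.15 on control arrays 1, 2, 3 and 4. Only control 4 fell inside the knockout range, and the difference was -0.30 (-0.59 to -0.02; limma, adjusted p = 0.999). Gch1, the first enzyme of tetrahydrobiopterin synthesis, read 6.82, 6.83, 6.48 and 6.70 on knockout arrays 6, 8, 9 and 10 and 7.05, 7.06, 7.16 and 6.77 on control arrays 1, 2, 3 and 4. Only control 4 fell inside the knockout range, and the difference was -0.31 (-0.57 to -0.05). Pla2g4a, the cytosolic phospholipase A2 that releases arachidonic acid, read 8.42, 8.59, 8.64 and 8.74 on knockout arrays 6, 8, 9 and 10 and 8.18, 8.38, 8.57 and 8.20 on control arrays 1, 2, 3 and 4. Only control 3 fell inside the knockout range, and the difference was 0.27 (0.01 to 0.52). Macrophages also express Gch1 and Pla2g4a; the summed macrophage markers given above overlapped between the groups, and their part was not tested.

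By role, the 2 genes of import lay close to 0, Pex5 at -0.01 (-0.29 to 0.27) and Pex7 at -0.04 (-0.24 to 0.16). Of the 9 other genes of reduction and head group transfer 5 were lower. Selenoi, the ethanolaminephosphotransferase, stood at -0.12 (-0.38 to 0.15) and Peds1, the desaturase that makes the plasmalogen double bond and is listed as Tmem189, at 0.01 (-0.29 to 0.31); both were named for their role after their values were seen. Of 6 measured genes that supply ethanolamine and choline 3 were lower, Pcyt1b having the smallest p at 0.12 (-0.17 to 0.40). Of 7 other remodelling genes 2 were lower, and of 6 genes around platelet-activating factor, itself an ether lipid, 1 was lower; Pafah1b3, a subunit of an enzyme that inactivates it, stood at 0.12 (-0.29 to 0.54). Of 6 other genes of breakdown 2 were lower, with the lysoplasmalogenase-family gene Tmem86a at 0.11 (-0.05 to 0.28). Of 5 genes of tetrahydrobiopterin supply 2 were lower.

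**Figure D4:**
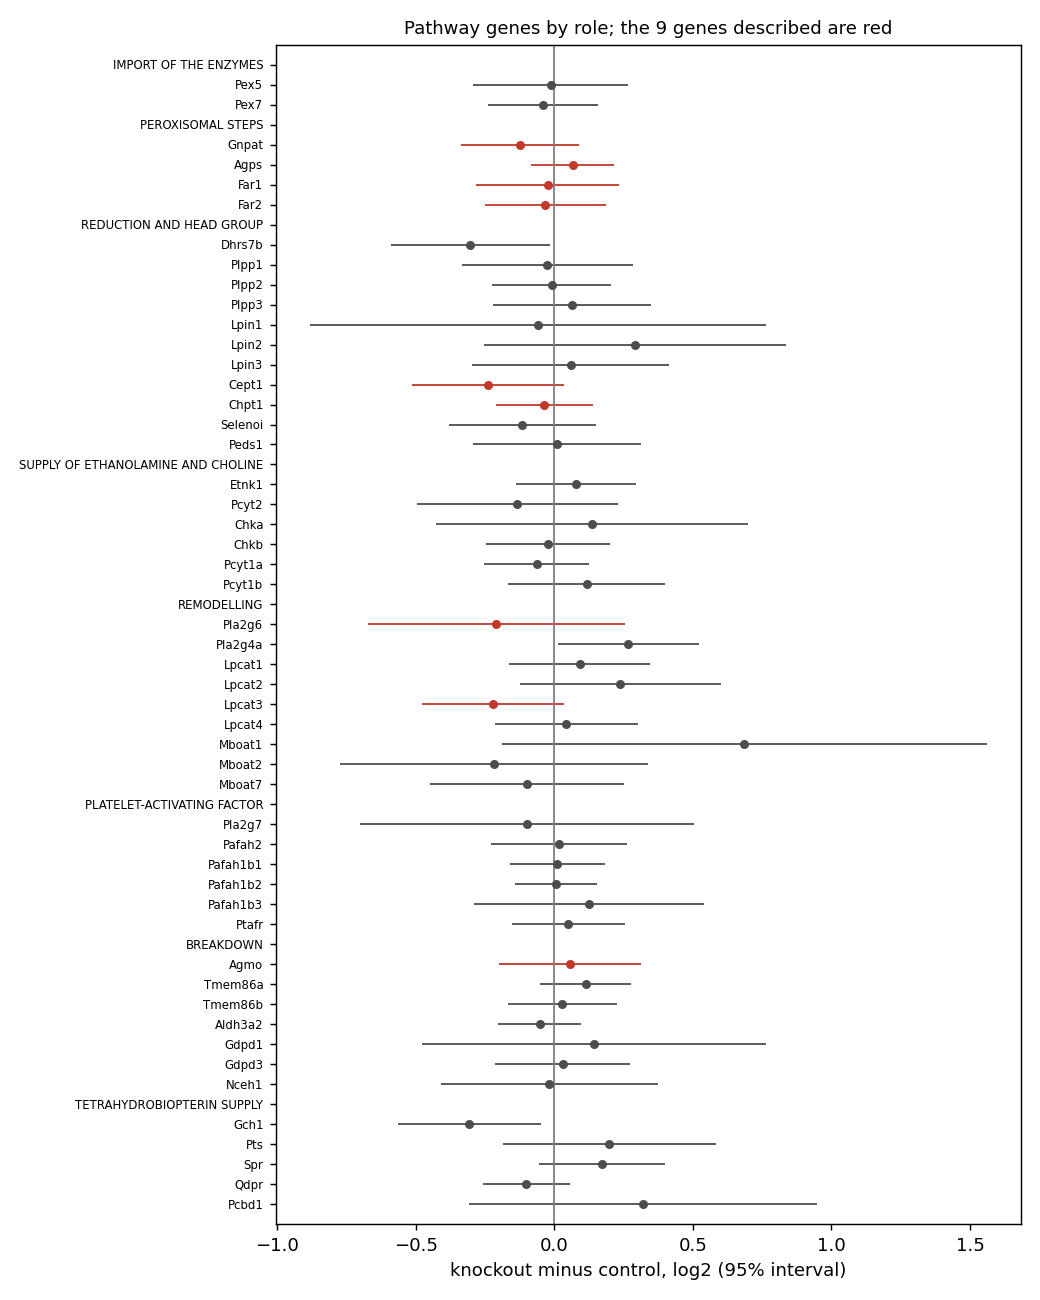
Difference between knockout and control (x axis, log2, with the 95% interval) for 50 measured genes of the ether lipid pathway, grouped by role (y axis); the 9 genes described in full are red. The intervals of Dhrs7b and Gch1 lie below 0 and that of Pla2g4a above it, and none of the 50 passed after adjustment over all genes.

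The genes most like the peroxisomal enzymes over the 8 arrays were looked up among 8923 genes with a mean above the median of all genes, clone names left out. For Gnpat these were Tmem129, a ubiquitin ligase of the endoplasmic reticulum (Pearson's r of 0.97), Abcb10, a mitochondrial transporter (0.97), and Tlnrd1 (0.96). For Agps they were Lrrc8a, a subunit of volume-regulated anion channels (0.93), Tnfrsf21, a death receptor (0.92), and Rmnd5a (0.92). For Far1 they were Gpr108 (0.97), the homeobox gene Meox2 (0.96) and the ubiquitin ligase Pja2 (0.96). The 3 sets shared no gene, and between themselves Gnpat and Agps had an r of -0.10, Gnpat and Far1 -0.19, and Agps and Far1 0.20. These are descriptions of 8 arrays, chosen as the highest among many genes, with no test.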

How the data were processed

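RNA from whole gonadal fat was measured on Affymetrix mouse arrays, 1 per sample. Per the submitters' processing notes, the authors used RMA (version not stated there). They deposited log2 values, between 2.71 and 14.8, without detection calls. RMA can compress changes of dim probe sets. Of 45101 probe sets, 64 controls were left out; 34945 had 1 symbol in the annotation of 2016, 932 several and 9160 none, and symbols checked by Entrez number against RefSeq (GRCm38.p6) changed in 0 cases. Knockout was compared with control by limma 3.58.1 in R 4.3.3 (lmFit, eBayes, no covariate), with Benjamini-Hochberg adjustment over all 18193 genes, or over all 45037 probe sets for values by probe set other than the lead one; the threshold was 0.05. Precision is limited by the number of arrays, 4 in each group.

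The 9 genes, the gene lists, the tests and the alternatives were chosen with earlier results of these data known. The named genes are the 9, Pex5, Pex7, other pathway genes with an unadjusted p under 0.05 or the smallest p of their role, and the 3 genes most like Gnpat, Agps and Far1. Selenoi, Peds1 and Ppp2r5a fall outside this rule and were chosen after their values were seen. A marker list's level is the log2 of the sum of its genes' linear values. On simulated data for 18193 genes, 4 arrays against 4, the limma step found 26 of 50 genes changed 1.5-fold and 42 of 50 changed 2-fold. It found 47 of 50 changed 3-fold and 48 of 50 changed 4-fold, and called 11 unchanged genes. The simulated noise was normal and independent for each gene and array, without array sets, other tissue or RNA quality differences. These counts therefore do not tell how many changed genes would be found on the real arrays. Alternatives were a variance trend, leaving out dim genes, quantile normalisation, median centring, averaging probe sets, array weights, the array set as a block, RNA quality as a covariate, the array sets singly, every probe set alone, and leaving out each array. Etnk2 was not analysed here. Figures were drawn with matplotlib 3.10.9.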

Additional observations from a re-analysis of the deposited data

Results flagged for a closer look

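In the group of 4 knockout arrays, Pla2g6 1431278_s_at stood apart on knockout 9, at 5.39 where the other knockouts lay between 7.32 and 7.55. Its gap to the nearest array, divided by the group's range, was 0.894, above Dixon's 95% critical value for 4 values. Of 62 groups looked at in this way, this was the 1 in which an array stood apart. At this limit chance alone flags about 1 group in 20, so 1 of 62 is not more than chance gives. Knockout 9 was also among the arrays with the large 3' minus 5' difference of pyruvate carboxylase described above.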

How the results depend on the processing

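Over 19 other settings, 0 genes passed in any limma fit, and the smallest adjusted p of an ether lipid gene was 0.566, for Pla2g6 without control 4. Gnpat, Cept1 and Lpcat3 stayed lower and Agps stayed higher in every fit over all arrays and in every fit without 1 array. The count of genes lower in knockout was 7 of 9 at the outset, 4 with probe sets averaged per gene and 5 to 8 when 1 array was left out. Leaving out dim genes removed Far2, Agps 1443797_at, Gch1 and Pcyt1b, so 1 of the 3 pathway genes with an unadjusted p under 0.05 has no value there. Another, Pla2g4a, did not stay under 0.05 in every limma fit. Its unadjusted p was 0.0529 with quantile normalisation, 0.0732 with median centring and 0.0655 with the RNA quality covariate.

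Some values changed sign or moved. With probe sets averaged, Far2 stood at 0.016, Chpt1 at 0.0050, Pla2g6 at 0.048 and Pex5 at 0.011. Array weights gave Far1 0.00437, Far1 1426369_at 0.013 and Tmem189 (Peds1) -0.043. Quantile normalisation gave Far1 1426369_at 0.00766, and median centring gave Far1 1435315_s_at -0.00174, Pla2g6 1431277_at -0.014 and Tmem189 -0.017. The RNA quality covariate gave Far1 1426369_at 0.012, Pla2g6 1431277_at -0.0145, Pla2g6 1431278_s_at -0.13 and Tmem189 -0.032. Within the set of knockouts 6 and 8 and controls 1 and 2, and then within the other set, the values were 0.14 and -0.012 for Agps, 0.032 and -0.081 for Far1, -0.065 and 0.000239 for Far2, -0.47 and 0.046 for Pla2g6, -0.17 and 0.14 for Pex5, -0.10 and 0.020 for Pex7, -0.27 and 0.041 for Selenoi and 0.062 and -0.042 for Tmem189. Of the other probe sets, the 4 of Far1 and Chpt1 1426146_a_at also changed sign between the sets. The cause was not tested.

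Leaving out 1 array turned the sign of the following, with their lowest and highest values: Far1 -0.11 (without control 1) to 0.047 (without control 3), Far2 -0.093 (control 1) to 0.033 (control 2), Chpt1 -0.074 (knockout 6) to 0.00176 (knockout 10), Agmo -0.000161 (control 1) to 0.13 (knockout 8), Pex5 -0.12 (control 4) to 0.056 (control 2), Pex7 -0.083 (knockout 6) to 0.019 (control 1), Pafah1b3 -0.029 (control 3) to 0.22 (control 4) and Tmem189 -0.073 (control 4) to 0.083 (control 2). By probe set the ranges were -0.044 to 0.043 for Far1 1426369_at, -0.11 to 0.035 for 1426370_at, -0.031 to 0.13 for 1435315_s_at and -0.16 to 0.054 for 1453550_a_at. They were -0.050 to 0.15 for Far2 1435621_at, -0.098 to 0.015 for Chpt1 1426146_a_at, -0.071 to 0.073 for Pla2g6 1431277_at and -0.20 to 0.85 for Pla2g6 1431278_s_at.

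No paired analysis was possible because the groups share no replicate number.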
